A study of Homo sapiens with 18 samples.

Results

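The 8 genes described here encode CD83 and a set of surface molecules with which an antigen-presenting cell addresses T cells: CD80, CD86, CD40, CD274, ICOSLG, CD48 and CD58. Members were the rows of the deposited count matrix whose Ensembl gene identifiers belong to these symbols. Each symbol matched a single identifier, and 8 of 8 had counts, among 34092 genes with a count in at least 1 library. CD83 was chosen by its response to lipopolysaccharide (LPS), which was smaller in cells given a scrambled siRNA than in WT cells of this same experiment. That contrast is therefore described for all members with no test. For CD83 every other value is also a description, except its LPS response in the knockdown, whose libraries were not part of that contrast.

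T cells need a costimulatory signal beside the antigen signal. CD80 and CD86 give it through CD28 and withhold it when CTLA4 binds them instead. ICOSLG acts through ICOS, while CD274 (PD-L1) restrains T cells through PD-1. CD40 receives the signal back from T cells through CD40 ligand. LPS, a wall component of Gram-negative bacteria, is sensed by monocytes through TLR4, and NF-kB and interferon-driven transcription follow. CD83 is a classic surface marker of mature dendritic cells and limits the removal of CD86 and MHC class II from the surface.

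The experiment used THP-1, a human monocytic leukaemia line, and asked what the depletion of TRAFD1, a regulator of innate signalling, does to resting and LPS-treated cells. KD cells received 25 nM of an siRNA against TRAFD1, and SCR cells received 25 nM of a non-targeting siRNA whose sequence is undisclosed. WT cells carried no siRNA; one label calls them untreated and another describes the transfection mix alone, so a difference between SCR and WT cannot be told apart into an effect of the reagent and one of the siRNA. After 72 h the cells were kept for 4 h in medium alone or with 10 ng/ml LPS, which gives 6 groups of 3 libraries. KD rests on 1 siRNA and 1 cell line. Nothing in the labels says more of the triplicates than that they were triplicates, so p-values measure the spread between these libraries, which may be technical.

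The 18 libraries were 3′ end RNA-seq libraries of 8206023 to 22344279 counts. Levels are given as CPM, the normalised read count relative to library size after trimmed-mean scaling, on which 3 counts correspond to 0.133 to 0.378 CPM, a floor that covers counting error only. TRAFD1 stood at 5.37 to 11.6 CPM in unstimulated KD and at 20.1 to 26.8 in unstimulated SCR, a log2 difference of -1.45 ± 0.23 (SE) with an edgeR adjusted p of 0.0277. With LPS its range was 13.8 to 15.8 in KD and 18.7 to 27.5 in SCR, and the difference of -0.65 ± 0.22 had an adjusted p of 0.262 in edgeR. All 8 monocyte markers had counts, from 8.52 to 342 CPM in single libraries, while the summed T cell markers reached at most 1.82 CPM and the summed B cell markers 6.28. Of 5 epithelial and red cell markers 3 had counts, and their sum was at most 3.16 CPM.

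As NF-kB and interferon-driven transcription follow LPS, the start regions of the members were searched for the letters such factors bind. Whether these factors act on the members was not tested. RefSeq sequences (GRCh38.p14) of 250 bases before to 50 bases after a start were at hand for 7 of the 8 members, with 9 entries between them. CD40 had none. On both strands, the NF-kB consensus occurred in 2 of the 9 entries, against 11.3% of 35116 promoters. The interferon-stimulated response element core GAAANNGAAA occurred in 1 entry, against 3.57%, and the GAS motif TTCNNNGAA in 1, against 7.66%. The 3 stretches below are those with a match. Each runs from 250 to 41 bases before the start on the + strand, and capitals mark the matched letters.
CD83, second start, chr6:14117522-14117731: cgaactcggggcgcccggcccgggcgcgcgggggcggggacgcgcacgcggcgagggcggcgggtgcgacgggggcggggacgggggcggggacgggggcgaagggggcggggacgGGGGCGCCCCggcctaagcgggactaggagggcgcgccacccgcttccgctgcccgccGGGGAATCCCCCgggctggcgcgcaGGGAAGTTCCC
CD274, chr9:5450292-5450501: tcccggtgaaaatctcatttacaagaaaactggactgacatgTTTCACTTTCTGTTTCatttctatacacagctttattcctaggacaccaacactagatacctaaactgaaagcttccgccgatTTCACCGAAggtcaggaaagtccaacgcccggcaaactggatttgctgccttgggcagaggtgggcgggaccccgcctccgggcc
CD86, second start, chr3:122077534-122077743: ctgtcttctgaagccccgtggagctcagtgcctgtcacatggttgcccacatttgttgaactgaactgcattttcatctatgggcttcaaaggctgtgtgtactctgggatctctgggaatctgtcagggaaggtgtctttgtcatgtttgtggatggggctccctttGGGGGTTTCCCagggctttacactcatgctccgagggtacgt
The capitals in CD83 hold 6 overlapping matches to the NF-kB consensus in 3 places, the nearest of which begins 51 bases before the start. In CD274 they hold 2 overlapping interferon response element cores on the opposite strand, beginning at 208 and 202 bases before the start, and a GAS motif at 125. In CD86 they hold 2 overlapping NF-kB matches near 82 bases before the start. The first start of CD83, the first start of CD86, CD80, ICOSLG, CD48 and CD58 held none of the 3 motifs in this window. A match is a run of letters and not a measured site.

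CD83 (ENSG00000112149; chromosome 6, 14117487 to 14137149, + strand, positions here and below on GRCh37) had an unstimulated level that differed between conditions more than its stimulated level did. Its libraries stood at 12.9, 9.72 and 14.5 CPM in unstimulated WT, at 34.7, 35.4 and 32.4 in unstimulated SCR, and at 29.3, 28.4 and 26.6 in unstimulated KD. The 3 groups did not overlap, with WT lowest and SCR highest. Without LPS, 22.6% of all genes had no overlap between SCR and WT and 15.1% between KD and SCR, while 10.8% were higher in KD than in WT without overlap. The SCR and WT libraries are among those by which CD83 was chosen. With LPS, WT libraries stood at 103, 109 and 99.8 CPM, SCR at 88.4, 99.5 and 104, and KD at 93.2, 88.4 and 74.8. Here neighbouring groups in the order WT, SCR, KD did overlap, and every LPS library lay above every unstimulated one.

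The LPS response of CD83 in KD, from 28.1 ± 1.40 to 85.5 ± 9.55 CPM (SD, n = 3), was a log2 fold change of 1.60 ± 0.12 (SE) with an adjusted p of 7.3e-09 in edgeR's quasi-likelihood test. In SCR the same value was 1.51 ± 0.12, from a mean of 34.2 ± 1.54 to 97.2 ± 7.86 CPM, and in WT it was 3.06 ± 0.13, from 12.4 ± 2.41 to 104 ± 4.87. On the scale of group means, CD83 with LPS was 8.43 times its unstimulated level in WT, 2.84 times in SCR and 3.04 times in KD. In cultures measured as a whole, more cells with CD83 RNA and more RNA per cell cannot be told apart. The smaller ratios stand beside the higher unstimulated levels: SCR exceeded WT by 1.45 ± 0.13 on the log2 scale without LPS and differed by -0.10 ± 0.12 with LPS. KD exceeded WT by 1.17 ± 0.13 without LPS and differed by -0.28 ± 0.12 with it. Against SCR, KD differed by -0.28 ± 0.12 without LPS and by -0.19 ± 0.12 with LPS. The difference between LPS responses was -1.55 ± 0.17 for SCR minus WT, the value by which CD83 was chosen, -1.45 ± 0.17 for KD minus WT, which shares the WT libraries with it, and 0.09 ± 0.17 for KD minus SCR.

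**Figure D1:**
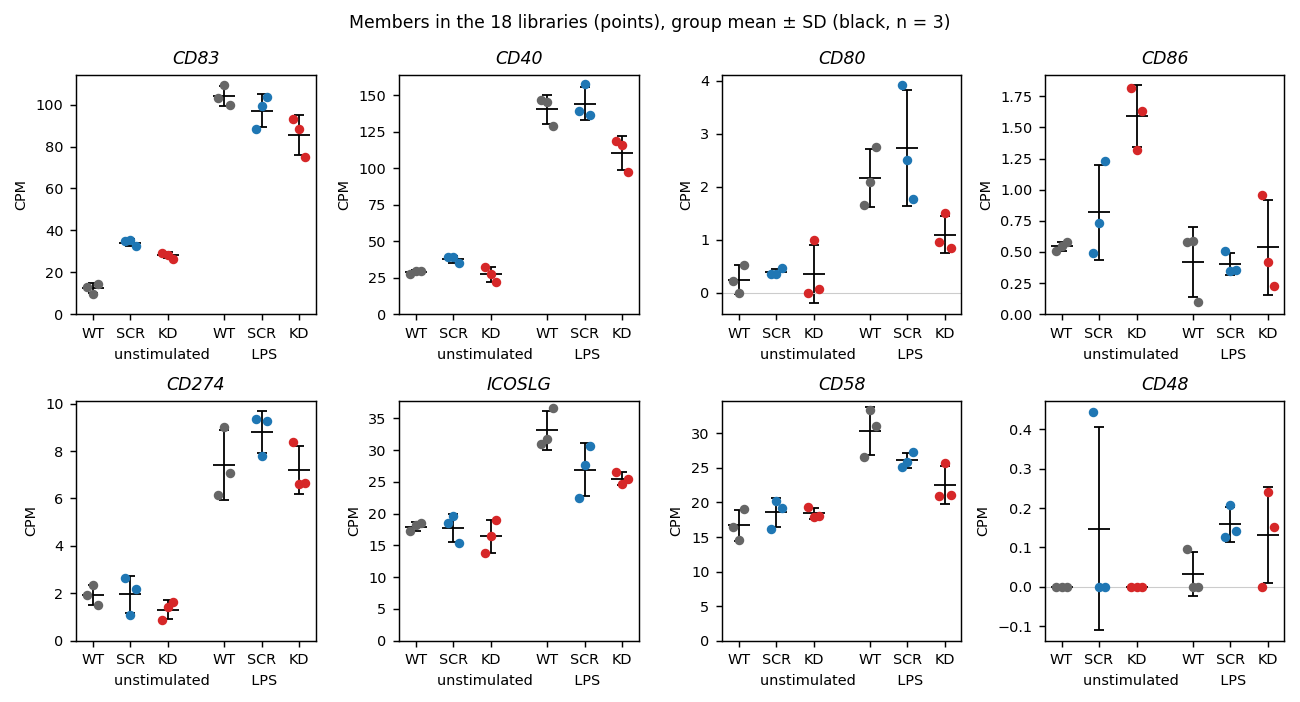
Levels of the 8 members in CPM (vertical axis, a scale of its own for each gene) in WT (grey), SCR (blue) and KD (red) without LPS and with LPS. Points are libraries and black marks the group mean ± SD of 3 libraries. Unstimulated CD83 lies at 9.72 to 14.5 CPM in WT and at 26.6 to 35.4 in SCR and KD, while CD40 with LPS is lowest in KD, at 97.2 to 119.

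CD40 (ENSG00000101017; chromosome 20, 44746910 to 44758502, + strand), the receptor for CD40 ligand, was the member next most like CD83 across libraries. Unstimulated levels were 27.6, 29.6 and 29.8 CPM in WT, 39.1, 38.9 and 34.8 in SCR, and 32.4, 27.8 and 22.2 in KD. With LPS they were 147, 145 and 129 in WT, 139, 158 and 137 in SCR, and 119, 116 and 97.2 in KD. CD40 was thus highest in SCR and lowest in KD in both states on average, with KD below SCR in every library of either state. It rose with LPS in all 3 conditions, the log2 fold change (± SE) being 2.28 ± 0.13 in WT, 1.94 ± 0.12 in SCR and 2.01 ± 0.12 in KD (edgeR adjusted p of 1.5e-11, 3.4e-10 and 3.0e-10).

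CD274 (PD-L1; chromosome 9, 5450503 to 5470566, + strand), the inhibitory ligand of PD-1, was low without LPS, at 1.92, 2.36 and 1.51 CPM in WT, 2.62, 1.10 and 2.16 in SCR, and 0.873, 1.40 and 1.63 in KD. With LPS it reached 6.13, 9.02 and 7.05 CPM in WT, 9.33, 7.78 and 9.28 in SCR, and 8.39, 6.60 and 6.63 in KD. Stimulated and unstimulated libraries did not overlap in any condition, and the 3 conditions overlapped within each state. CD274 rose by 1.96 ± 0.29 in WT, by 2.11 ± 0.29 in SCR and by 2.47 ± 0.31 in KD, with edgeR adjusted p of 4.9e-05, 2.5e-05 and 9.4e-06. An antisense gene overlaps its last 500 bases, the stretch over which reads were counted, and the sources used here do not state whether counting used the strand.

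CD80 (chromosome 3, 119243140 to 119278461, - strand), one of the CD28 ligands, was at the edge of detection. Without LPS it had 4, 0 and 12 counts in WT, 8, 4 and 6 in SCR, and 0, 12 and 1 in KD. With LPS it had 17, 25 and 28 counts in WT, 31, 36 and 25 in SCR, and 11, 25 and 11 in KD. It passed the filter on low counts in each LPS group with 3 of 3 libraries and in unstimulated cells with at most 1, so its LPS groups had to be the higher ones. The edgeR log2 fold change was 2.87 ± 0.79 in WT (adjusted p = 0.0167) and 2.75 ± 0.78 in SCR (adjusted p = 0.0173). In KD it was 1.68 ± 0.82 (adjusted p = 0.197), where the 12 counts of unstimulated replicate 2, 0.991 CPM, lie above 2 of the 3 LPS libraries at 0.961, 1.50 and 0.838 CPM. Without that library the KD value was 4.63, with an edgeR adjusted p of 0.0079. The WT call was lost without WT unstimulated replicate 1 or 2 or WT LPS replicate 6, and the SCR call without SCR unstimulated replicate 1 or 2 or SCR LPS replicate 4. TIMMDC1 on the other strand overlaps the counted end of CD80.

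CD86 (chromosome 3, 121774209 to 121839986, + strand), the other CD28 ligand, was similarly sparse, with 1 to 27 counts, and had its highest values without LPS. Unstimulated libraries stood at 0.509, 0.545 and 0.578 CPM in WT, 0.489, 0.731 and 1.23 in SCR, and 1.81, 1.32 and 1.63 in KD. LPS libraries stood at 0.584, 0.585 and 0.0979 CPM in WT, 0.504, 0.348 and 0.354 in SCR, and 0.961, 0.420 and 0.229 in KD. Unstimulated KD lay above every other group, and it was the group whose 3 libraries carried CD86 past the filter. The LPS response was -0.35 ± 0.65 in WT, -1.02 ± 0.65 in SCR and -1.58 ± 0.60 in KD, with edgeR adjusted p of 0.791, 0.309 and 0.0922. In KD all LPS libraries lay below the unstimulated ones, as in 12.7% of all genes. No CD86 difference passed the threshold of 0.05 in edgeR. Leaving out WT LPS replicate 6, which holds 1 count, turned the WT response to 0.10.

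ICOSLG (chromosome 21, 45635265 to 45661329, - strand), the ligand of ICOS, was expressed before stimulation, at 17.2, 18.2 and 18.5 CPM in WT, 18.5, 19.5 and 15.3 in SCR, and 13.8, 16.4 and 19.0 in KD. LPS libraries were at 31.0, 31.8 and 36.6 CPM in WT, 22.4, 27.7 and 30.7 in SCR, and 26.6, 24.6 and 25.4 in KD. The increase was smaller than for CD40 or CD274 but without overlap in any condition. It was 0.88 ± 0.14 in WT, 0.60 ± 0.14 in SCR and 0.64 ± 0.14 in KD (edgeR adjusted p of 0.00014, 0.0055 and 0.0056). The KD value had an adjusted p of 0.0516 when edgeR was fitted to the KD libraries alone.

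CD58 (LFA-3; chromosome 1, 117057156 to 117113661, - strand), which binds CD2 on T cells, stood at 16.4, 14.6 and 19.1 CPM in unstimulated WT, 16.2, 20.3 and 19.2 in SCR, and 19.3, 17.9 and 18.04 in KD. With LPS it stood at 26.6, 33.3 and 31.0 in WT, 25.1, 25.9 and 27.3 in SCR, and 20.9, 25.7 and 21.0 in KD. Every stimulated group lay above its unstimulated counterpart, and the stimulated means, from high to low, were in the order WT, SCR, KD with overlap between neighbours. It rose by 0.85 ± 0.14 in WT and 0.50 ± 0.14 in SCR, with edgeR adjusted p of 0.00014 and 0.0152. In KD the value was 0.29 ± 0.14 with an adjusted p of 0.185 by edgeR. The SCR call was lost without SCR LPS replicate 6 (adjusted p = 0.0607 in edgeR) or SCR unstimulated replicate 1 (0.0952).

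CD48 (chromosome 1, 160648536 to 160681621, - strand), a ligand of CD244 and CD2 that is common on blood leukocytes, was hardly detected in this line. It had 23 counts in 7 of the 18 libraries, 10 of them in SCR unstimulated replicate 1, and it did not pass the filter. Unstimulated WT and KD had 0 counts in every library, which allows up to 3 counts per library. It enters no comparison.

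CD80 and CD86 passed the filter through the groups where they were high and are left out of the following counts of LPS calls and of library overlap. Counts over 6 members, here and below, include both, although the filter favoured their high groups. Neither was called in any of these counts by edgeR. CD40, CD274, ICOSLG and CD58, the 4 members besides CD83 that reached the filter's minimum in every library, rose with LPS in WT, where 7.01% of all 16678 tested genes rose at an adjusted p under 0.05 in edgeR. All 4 also rose in SCR, where 8.64% of all genes did. In KD, CD83, CD40, CD274 and ICOSLG rose and CD58 missed the threshold, with 6.41% of all genes higher. Libraries of CD40, CD274, ICOSLG and CD58 did not overlap between the states in any condition, as for 15% of all genes that were higher in WT, 17.5% in SCR and 12.8% in KD. Whether the LPS responses of the members differed between conditions was asked by interaction terms for the 6 tested members other than CD83: 0 were called for KD minus SCR and 0 for KD minus WT in edgeR, with 0.36% of all genes called for KD minus WT and 0% for KD minus SCR. At an unadjusted p under 0.05 the counts were 0 and 1 (CD58, -0.56 ± 0.19, adjusted p = 0.195), and DESeq2 called 0 in both. The calls of CD80 and CD58 in WT or SCR beside misses in KD are therefore not shown to be differences between conditions.

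**Figure D2:**
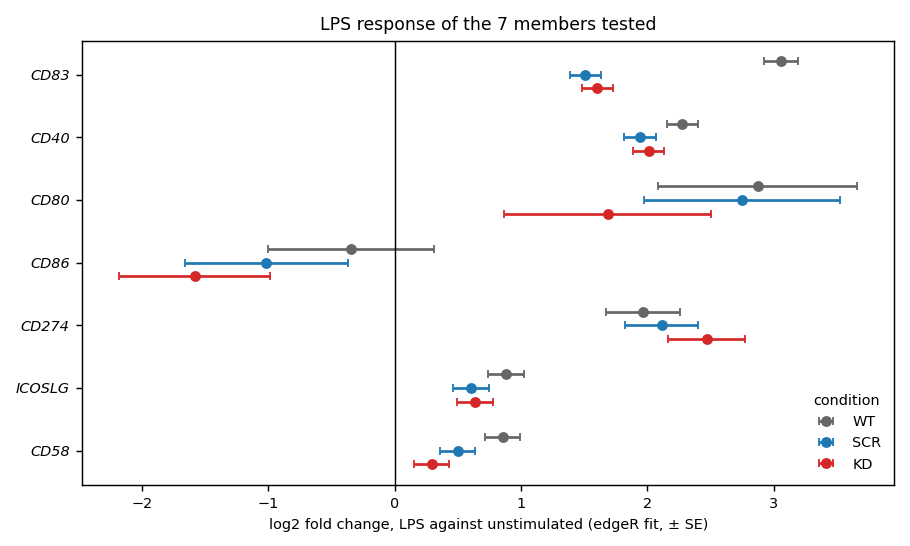
LPS response of the 7 members tested (horizontal axis, edgeR log2 fold change against unstimulated cells of the same condition; bars are ± SE). CD83 lies at 3.06 in WT and at 1.51 and 1.60 in SCR and KD, while CD86 lies below 0 in all 3 conditions.

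The contrast of SCR with WT put CD83 in view, so the other members are set beside it as values. Their SCR minus WT differences in LPS response were -0.34 ± 0.17 for CD40, -0.36 ± 0.19 for CD58, -0.28 ± 0.20 for ICOSLG, 0.15 ± 0.41 for CD274, -0.12 ± 1.05 for CD80 and -0.67 ± 0.93 for CD86. CD83 was chosen for its value of -1.55 here, so the distance of the other members from it was not tested. The standard errors of CD80 and CD86 are the largest. Of all genes 0.234% were called in this contrast.

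The comparison of KD with SCR comes nearest to the knockdown, since both received siRNA. Loss of TRAFD1 and other effects of the 1 siRNA used cannot be told apart in it. With LPS, TRAFD1 itself did not pass in this comparison, at -0.65 in edgeR. In KD TRAFD1 was called higher with LPS, by 0.73 on the log2 scale, though its response was not called different from that in SCR. Of 6 members read as tests, 0 passed in unstimulated cells (0.066% of all genes did) and 0 passed with LPS (0% of all genes). CD40 was the member nearest to the threshold in both. Without LPS the difference was -0.45 ± 0.12, from 37.6 ± 2.42 to 27.5 ± 5.14 CPM (SD), with an edgeR adjusted p of 0.112. With LPS it was -0.38 ± 0.12, from 144 ± 11.5 to 111 ± 11.8 CPM, with an edgeR adjusted p of 0.218. Both had an unadjusted p under 0.05, the count of such members being 1 in each state. DESeq2 called CD40 in both, with adjusted p of 0.0483 without LPS and 0.0456 with LPS, and edgeR called it in unstimulated cells without KD unstimulated replicate 1 (0.0489). Fitted to the 6 unstimulated libraries alone, edgeR gave an adjusted p of 0.515. Of 6 alternatives, 3 called CD40 without LPS, the replicate block among them, and 2 called it with LPS.

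Groups that did not overlap between KD and SCR were also found for CD80 with LPS, at -1.27 ± 0.70 (edgeR adjusted p = 0.490), and for CD86 without LPS, at 0.98 ± 0.57 (adjusted p = 0.497 in edgeR). Separation of this kind was common: 15.1% of all genes had no overlap between the 2 conditions without LPS and 21.5% with LPS. For CD86 the filter also favoured unstimulated KD, the group through which it passed, so its separation is a description only. CD274 without LPS differed by -0.64 ± 0.33 (edgeR adjusted p = 0.424), with overlapping libraries. For CD58 and ICOSLG the KD and SCR libraries overlapped in both states, with differences from -0.21 ± 0.14 to 0.00 ± 0.14.

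Between SCR and WT, 0 of 6 members read as tests passed in either state, where 3.23% of all genes passed without LPS and 0.114% with LPS in edgeR. With the replicate number as a block, 135 genes in place of 19 passed with LPS, which is 0.809% of all genes, and still 0 members. At an unadjusted p under 0.05 the count was 1 without LPS, CD40 at 0.38 ± 0.12 (edgeR adjusted p = 0.0993), and 0 with LPS. DESeq2 called 0 in both with the same filter, and CD40 without LPS with no filter (0.0492). The CD40 libraries did not overlap between SCR and WT without LPS, as in 22.6% of all genes. With LPS the CD40 difference was 0.04 ± 0.12, and ICOSLG at -0.29 ± 0.14 (edgeR adjusted p = 0.367) had libraries without overlap, as did 22.8% of all genes. Unstimulated CD83 in SCR, at 2.77 times the WT mean, stands beside a CD40 mean 1.30 times that of WT, and CD274, ICOSLG and CD58 means between 0.991 and 1.11 times. The means of the sparse CD80 and CD86 were 1.56 and 1.50 times those of WT, on at most 12 and 16 counts per library.

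Between KD and WT, TRAFD1 itself did not pass with LPS, at -0.23 in edgeR. Of 6 members, 0 passed in unstimulated cells, where 11.7% of all genes did, and 1 passed with LPS, where 10.8% did. The called member was CD58, at -0.43 ± 0.14 from 30.3 ± 3.45 CPM in WT to 22.5 ± 2.73 in KD (SD), with an edgeR adjusted p of 0.0495. This call sat at the threshold: it was lost without the filter on low counts (0.111) and in 12 of 18 edgeR fits that each left out 1 library, whose adjusted p ranged from 0.0409 to 0.164. The 12 were those without any of the LPS libraries of KD and SCR, WT LPS replicate 5 or 6, SCR unstimulated replicate 2 or 3, KD unstimulated replicate 3 or WT unstimulated replicate 1. CD40, at -0.34 ± 0.12 (edgeR adjusted p = 0.0662), and ICOSLG, at -0.38 ± 0.14 (0.0900), also lay lower in KD with LPS in every library, as did CD80 at -0.95 ± 0.71 (0.419). Of all genes, 16.4% had lower KD libraries without overlap. CD40 was called in 5 of 6 alternatives and in 2 of 18 fits with 1 library left out. Among the 5 were DESeq2 (adjusted p = 0.0240), edgeR with RLE scaling (0.0459) and edgeR fitted to the 6 stimulated libraries alone (0.0083). ICOSLG was called by the last of these (0.0248). Without LPS, CD86 was 1.53 ± 0.58 higher in KD than in WT without overlap (edgeR adjusted p = 0.0967), as were 10.8% of all genes. It was the 1 member with an unadjusted p under 0.05, and DESeq2 gave it no adjusted p. CD86 passed the filter through unstimulated KD, so the filter favoured that group and its higher level is a description only.

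**Figure D3:**
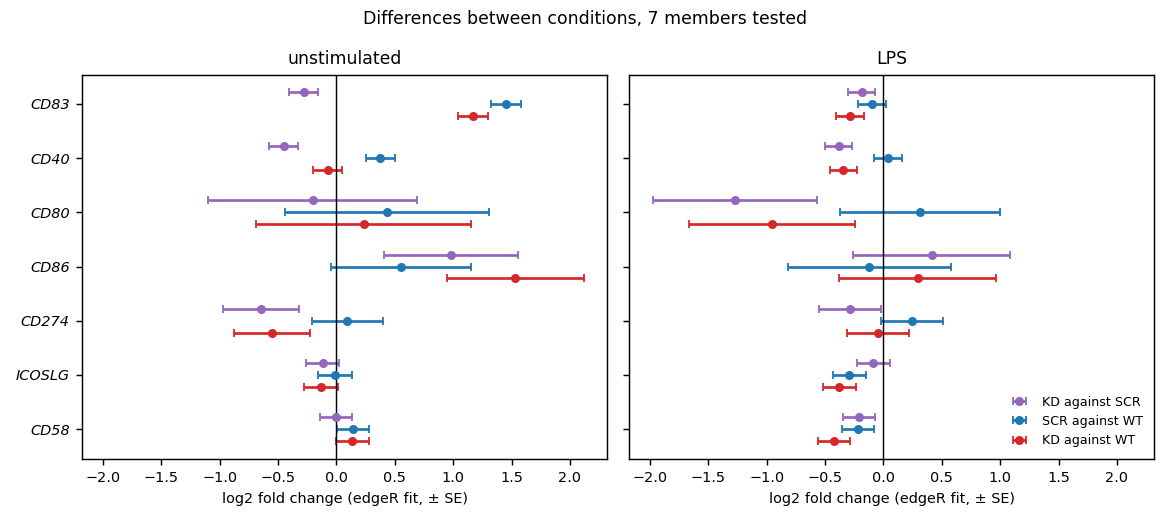
Differences between conditions for the 7 members tested, without LPS (left) and with LPS (right), as edgeR log2 fold changes (horizontal axis) ± SE. Unstimulated CD83 lies at 1.45 for SCR and 1.17 for KD against WT, while CD40 lies at -0.45 and -0.38 for KD against SCR.

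The members did not move as 1 block. Over the 18 libraries, Pearson's r of log2 CPM with CD83 was 0.93 for CD40, 0.87 for CD58, 0.83 for CD274, 0.82 for CD80, 0.81 for ICOSLG and -0.41 for CD86. These points share the LPS treatment, which separates them into 9 libraries of either state, so the values describe the shared response. Among all tested genes, those most like CD83 by the same measure were SQSTM1 (0.988), an autophagy receptor, NFKBIE (0.988), an inhibitor of NF-kB, and the chemokine copies CCL4L1 and CCL4L2 (0.985 each), which are near-identical and count as 1 signal. The fifth, ENSG00000256515 (0.984), carries no symbol in the annotation. SQSTM1 had means of 195 CPM in unstimulated WT, 300.4 in SCR and 281 in KD, and 612, 621 and 551 with LPS. NFKBIE had means of 18.9, 32.1 and 29.1 CPM, and 63.6, 63.2 and 57.9 with LPS. In both, as in CD83, the unstimulated means ran from WT through KD to SCR, while with LPS the highest mean of SQSTM1 was that of SCR and not of WT.

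Markers of dendritic cells and their maturation, of which CD83 is usually one, were examined through 6 other genes. FSCN1, an actin-bundling protein, had 171 to 411 CPM and CD209, a lectin, 35.2 to 49.6. CCR7, the lymph-node homing receptor, was at 0 to 0.308 CPM without LPS and 0.600 to 1.42 with LPS, on at most 17 counts per library. LAMP3 was at 0.356 to 2.62 CPM over both states. CD1A and CD1C were hardly detected, with at most 4 and 5 counts per library. The sum of the 6 ranged from 207 to 246 CPM in unstimulated WT, 256 to 267 in SCR and 262 to 321 in KD, and with LPS from 403 to 452 in WT, 354 to 402 in SCR and 357 to 381 in KD. That sum is mostly FSCN1. Like CD83 it was lowest in unstimulated WT and higher with LPS than without in every condition. Unlike those of CD83, the FSCN1 libraries lay higher in unstimulated KD, at 221 to 275 CPM, than in unstimulated SCR, at 207 to 218. Of all genes 15.1% had no overlap between these groups, and edgeR called 0 of the 4 tested markers of this list between them. CD209 means went from 46.5 to 46.3 CPM with LPS in SCR and from 43.5 to 39.6 in KD. The part of these markers in the CD83 values was not tested. The monocyte markers summed to 457 to 532 CPM in unstimulated WT, 539 to 607 in SCR and 575 to 645 in KD.

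The wider costimulatory repertoire was taken as 37 further genes, of which 25 were tested. LPS raised 7 and lowered 4 in WT, where 7.01% of all genes rose and 7.26% fell. It raised 5 and lowered 2 in SCR, against 8.64% and 8.56% of all genes, and raised 5 and lowered 2 in KD, against 6.41% and 5.05%. The median log2 change of the 25 was -0.056, -0.014 and 0.0023 in these conditions, against -0.030, -0.027 and -0.0029 over all genes. ICAM1, the adhesion ligand of LFA-1, rose by 4.34 ± 0.24 in WT, by 2.89 ± 0.21 in SCR and by 2.71 ± 0.21 in KD (edgeR adjusted p of 1.4e-11, 3.7e-09 and 1.0e-08). SLAMF7, a self-binding receptor of the SLAM family, rose by 4.25 ± 0.25, 2.72 ± 0.22 and 3.61 ± 0.25, and its relative SLAMF8 by 3.22 ± 0.43, 1.50 ± 0.37 and 2.65 ± 0.43. The SCR call of SLAMF8 was lost without SCR unstimulated replicate 1 (edgeR adjusted p = 0.0503).

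Among B7 relatives, NCR3LG1, the ligand of the natural killer receptor NKp30, rose by 1.19 ± 0.18 in WT and 1.16 ± 0.19 in SCR. In KD the value was 0.29 ± 0.19 (edgeR adjusted p of 8.2e-05, 0.00016 and 0.342 in WT, SCR and KD). Interaction terms called 0 of the 4 tested B7 relatives for KD minus SCR and 0 for KD minus WT, so a smaller response in KD is not shown. VSIR, an inhibitory B7 molecule, fell by 0.70 in SCR, by 0.48 in KD and by 0.38 in WT on the log2 scale (edgeR adjusted p of 0.00055, 0.0154 and 0.0466). The KD call was lost without KD LPS replicate 4 or KD unstimulated replicate 2 or 3, and in the edgeR fit to the KD libraries alone (adjusted p = 0.0797). The WT call was lost in 13 of 18 edgeR fits that each left out 1 library, among them each fit without a WT library (adjusted p up to 0.157), and in 4 of 5 other alternatives (up to 0.0677). PDCD1LG2 (PD-L2), the neighbour of CD274 and the other ligand of PD-1, stood at 1.01 to 3.70 CPM in single libraries and passed in no LPS comparison, with values of -0.37 ± 0.38, -0.59 ± 0.38 and -0.24 ± 0.39.

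Of the TNF family, TNFSF14 (LIGHT) rose by 1.57 ± 0.33 in SCR (edgeR adjusted p = 0.0019), while its receptor TNFRSF14 differed in KD by -0.52 ± 0.15 (0.0322). The TNFRSF14 call was lost without any of the KD LPS libraries or KD unstimulated replicate 2 or 3, and in 2 of 5 other alternatives. PVR, the ligand of DNAM-1 and TIGIT, rose by 0.68 ± 0.16 in WT (edgeR adjusted p = 0.0048), and CMTM6, which holds PD-L1 at the surface, by 0.33 ± 0.10 in KD (0.0347). The CMTM6 call was lost without KD LPS replicate 4 or 5 or KD unstimulated replicate 2 or 3, and in 1 of 5 other alternatives. The receptors on the T cell side were at or near 0, and only CD244, shared with monocytes and natural killer cells, was tested. It changed by -0.97 ± 0.24 in WT (edgeR adjusted p = 0.0076), a call lost without WT LPS replicate 6 (0.0523). By interaction terms, 0 of the 25 genes were called for KD minus SCR and 1, ICAM1, for KD minus WT. SCR minus WT was read without a test. A call in 1 condition alone is thus not shown to be particular to it.

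**Figure D4:**
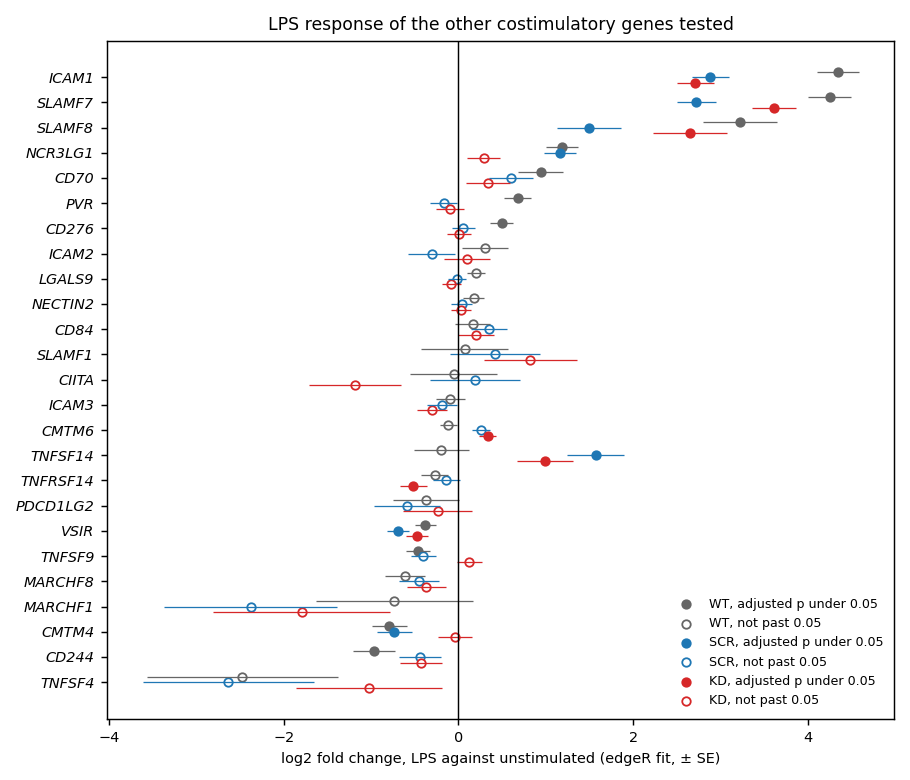
LPS response of the 25 further costimulatory genes tested (horizontal axis, edgeR log2 fold change ± SE) in WT (grey), SCR (blue) and KD (red). Filled points passed an adjusted p of 0.05; ICAM1, SLAMF7 and SLAMF8 lie at the top, with WT values of 4.34, 4.25 and 3.22.

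Between conditions, 0 of the 25 were called for KD against SCR in either state by edgeR. Without LPS, 4 were higher and 1 lower in SCR than in WT, where 3.23% of all genes were called in either direction: ICAM1 by 1.50 ± 0.25 (edgeR adjusted p = 0.0017), PVR by 0.78 ± 0.16 (0.0075), SLAMF8 by 2.15 ± 0.44 (0.0082), SLAMF7 by 1.16 ± 0.26 (0.0175), and TNFSF14 at -1.23 ± 0.32 (0.0387). ICAM1 stood at 1.19, 3.18 and 2.80 CPM in unstimulated WT and at 5.42, 8.22 and 6.62 in SCR, without overlap, in the same direction as CD83. The calls of SLAMF7, SLAMF8 and TNFSF14 were each lost in at least 1 fit without a library, SLAMF8 without SCR unstimulated replicate 2 (0.0509), SLAMF7 without SCR or WT unstimulated replicate 1 (0.177 and 0.0862), and TNFSF14 without KD LPS replicate 5, SCR unstimulated replicate 2 or 3, or any unstimulated WT library (up to 0.153). The SLAMF7 call was also lost in 1 of 6 other alternatives. Without LPS, KD differed from WT in 3 of the 25, with 11.7% of all genes called: ICAM1 (1.48 ± 0.25), PVR (0.60 ± 0.16) and TNFSF9 (-0.63 ± 0.14), with edgeR adjusted p of 0.00067, 0.0150 and 0.0054. All 3 missed the threshold when edgeR was fitted to the compared libraries alone (0.0675, 0.136 and 0.0957), and PVR also without unstimulated replicate 2 of KD (0.0871) or of WT (0.0680). With LPS, 0 were called for SCR against WT, and NCR3LG1 was the 1 gene of the 25 called between KD and WT, against 10.8% of all genes; it was lower in KD, at 14.1, 11.6 and 15.6 CPM against 29.2, 27.2 and 28.6 in WT, a difference of -1.05 ± 0.18 (edgeR adjusted p = 0.0024). Its SCR libraries, at 20.6, 23.5 and 28.8, lay above those of KD and overlapped those of WT.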

How the data were processed

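THP-1 total RNA was made into 18 libraries with a QuantSeq 3′ kit. The deposited values are raw counts per gene. The authors aligned reads with HISAT to GRCh37 and counted them with featureCounts over the last 500 bases of each gene of Ensembl 75; the strand setting is not given in the sources used here.

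Counts were fitted with edgeR 4.0.16 in R 4.3.3 (quasi-likelihood test, TMM scaling, filterByExpr, 1 mean per group over all 18 libraries). Of 63677 genes 16678 were tested; p-values were adjusted over them by Benjamini-Hochberg and read at 0.05. The fit was tested on simulated data. The study used DESeq2 (1.42.0), an alternative here. Members and lists were chosen with earlier results of these data known. Named genes were all members, TRAFD1, up to 6 further costimulatory genes per comparison by smallest adjusted p, PDCD1LG2, and the 5 genes most correlated with CD83, with CCL3L1 beside the fifth. Gene positions are from the GENCODE annotation of GRCh37; promoters are RefSeq on GRCh38.p14.

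Same-numbered WT and SCR libraries with LPS deviated together from the means of their groups (r of 0.261, 0.163 and 0.253), so their numbers were taken as pairs from the data. Alternatives were RLE scaling, no filter, DESeq2, fits to the compared libraries alone, a replicate block and each library left out.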

Additional observations from a re-analysis of the deposited data

Results flagged for a closer look

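ICAM1 stood out because its LPS response differed between KD and WT by the interaction term: -1.63 ± 0.31 on the log2 scale, with an edgeR adjusted p of 0.0217. Unstimulated libraries were at 1.19, 3.18 and 2.80 CPM in WT and 7.92, 5.37 and 6.30 in KD; LPS libraries were at 50.4, 51.0 and 41.5 CPM in WT and 43.6, 37.9 and 47.8 in KD. The groups were apart without LPS and overlapped with LPS. SCR stood with KD, at 5.42, 8.22 and 6.62 CPM without LPS and 46.0, 50.3 and 51.1 with LPS: the response differed by -1.46 ± 0.31 for SCR minus WT and by -0.17 ± 0.29 for KD minus SCR (edgeR adjusted p = 0.913). The call was lost in edgeR without KD LPS replicate 5 (adjusted p = 0.0706), WT LPS replicate 4 (0.0553) or WT LPS replicate 5 (0.0681), and in a fit to the compared libraries alone (0.0850).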

How the results depend on the processing

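Of 1534 values recomputed with an adjusted p for single-gene results, 1437 kept direction and side of the threshold, 76 fell short of it, 16 newly passed and 5 reversed. Another 7 had no adjusted p in DESeq2, and for 12 results given without a test all 286 values kept their direction. Members called for KD against SCR without LPS went from 0 to 1 (CD40) with DESeq2, with DESeq2 without a filter and with the replicate block, and ranged from 0 to 1 with 1 library left out. With LPS the count went from 0 to 1 with either DESeq2 fit. For SCR against WT without LPS it went from 0 to 1 with unfiltered DESeq2. For KD against WT with LPS it went from 1 to 2 with DESeq2, unfiltered DESeq2, RLE scaling or the replicate block, to 3 in the fit to the compared libraries, to 0 without a filter, and ranged from 0 to 2 with 1 library left out. The LPS count in SCR, CD80 included, ranged from 3 to 5, with 3 without SCR unstimulated replicate 1. The cause of these moves was not tested. The 5 reversals were all in log2 differences that had missed the threshold. With 1 library left out, CD86 with LPS in WT ranged from -0.66 to 0.10, CD40 for SCR against WT with LPS from -0.025 to 0.082 (reversed also, at -0.016, without WT LPS replicate 6), CD40 for KD against WT without LPS from -0.22 to 0.056, and PDCD1LG2 with LPS in KD from -0.44 to 0.013.

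Outside SCR and WT with LPS, same-numbered libraries had correlations of deviations from -0.087 to 0.304, the highest for replicate 1 of unstimulated WT and KD. The replicate block raised the genes called for KD against SCR from 11 to 183 without LPS and from 0 to 85 with LPS. Whether these numbers mark pairs is therefore not settled. Numbers differ between the 2 states, and no paired analysis of an LPS response was made. The replicate block changed no count of members called other than the 2 given. CD80, CD86 and CD48 rest on at most 36 counts per library, and the standard errors of CD80 and CD86 are several times those of CD40.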
